A study of Capra hircus with 25 samples.

Results

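Liver microRNAs (miRNAs) of Laiwu black goat kids, a breed of the domestic goat (Capra hircus), were compared between 2 and 4 weeks of age. The comparison takes in every miRNA that reached 1 RPM (a miRNA's reads scaled to a common library total) in at least 5 of the 10 libraries of these ages, which kept 382 of 463 entries and left out 81. Of the 382, 363 carry goat names and 19 carry sheep names (prefix oar-). Both groups are frozen liver with 5 libraries each, from a series of 25 libraries at 5 ages (1 day and 2, 4, 8 and 12 weeks). The labels give age and tissue and no treatment, sex or genotype. Whether each library is a separate animal is not stated in the labels, and the p-values therefore refer to the spread between libraries, part of which may be technical.

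miRNAs are short RNAs that guide a silencing complex to messenger RNAs with matching sites, mostly in their 3' ends, and lower the output of those messengers. The hairpin precursor gives a 5p and a 3p strand, of which 1 is often far more abundant. In liver, miR-122 is the dominant miRNA of hepatocytes. The weeks after birth take the ruminant liver from a milk diet towards the products of rumen fermentation.

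The files give no read counts. If the smallest step between low RPM values is 1 read, 7801296 to 11551571 miRNA reads lay behind each of the 10 libraries. That estimate rests on 242 to 261 low values per library, and 426 to 442 entries were detected. On that reading each read counted for 0.0881 to 0.13 RPM, and a miRNA with no read is limited to below 3 reads, or 0.264 to 0.39 RPM, for counting error only. The tissue label was checked by miR-122, which had 154674 ± 16671 RPM at 2 weeks and 162132 ± 28972 RPM at 4 weeks (mean ± SD, n = 5 each). Among the 4-week libraries, replicate 2 stood apart: miR-143-3p, known from smooth muscle, made up 24.4% of its reads against 8.79 to 10.2% in the other 4-week libraries and 8.81 to 14.7% at 2 weeks. Replicates 1 and 2 of 4 weeks lay towards the older ages, as described with the spread at the end. Their part in each difference was not tested further than by the values without them.

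No miRNA passed the test between 2 and 4 weeks with the spread of these 10 libraries. limma on log2(RPM + 1), with Benjamini-Hochberg adjustment over the 382, called 0 at an adjusted p under 0.05 (0%), and no other kind of test across miRNAs was run. At an unadjusted p under 0.05 there were 54 (14.1%), 22 higher at 4 weeks (5.76%) and 32 lower (8.38%). The lowest adjusted p was 0.0613, for miR-542-3p. The 2-week and 4-week libraries were fully separated for 14 miRNAs (3.66%), with 4 weeks above for 5 (1.31%) and below for 9 (2.36%). The balance of directions depended on the scaling. After median-ratio scaling, which divides each library by its typical level over all miRNAs, the ages were separated for 12 (3.14%), 7 above and 5 below. At an unadjusted p under 0.05 there were then 30 higher and 29 lower, and with limma's library weights 59 higher and 28 lower.

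Most fitted changes were small: 32 of the 382 were at least 1.5-fold in either direction. The median standard error of a log2 change was 0.21. The 95% interval of the change lay within 2-fold in either direction for 332 miRNAs (86.9%) and within 1.5-fold for 144 (37.7%). A log2 change of at least 1 in size was fitted for 5 miRNAs, all lower at 4 weeks: miR-105a, miR-767, miR-34b-3p, miR-34c-3p and miR-34c-5p. In all, 162 of the 382 log2 changes were above 0 and 220 below, with a median of −0.05. After median-ratio scaling 187 were above and 195 below (median −0.01), and with library weights 245 above and 137 below (median 0.09).

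When the spread was estimated from all 25 libraries, 12 miRNAs (3.14%) were called, 5 higher at 4 weeks (1.31%) and 7 lower (1.83%). The higher ones were miR-204-5p, miR-204-3p, miR-29a-3p and the sheep-named oar-miR-26a and oar-let-7f. The lower ones were miR-542-3p, miR-30e-3p, miR-34b-3p, miR-34c-3p, miR-34c-5p, miR-502b-5p and miR-181d. The fold changes are the same in both fits, and only the error differs. The 25-library error is pooled over all 5 ages, whose spread was unlike. An SD of log2(RPM + 1) over 1 was found for 11 miRNAs at 2 weeks. At 1 day, 4 weeks, 8 weeks and 12 weeks it was found for 0, 1, 6 and 1. The median SD was highest at 4 weeks (0.34), with 0.29 at 2 weeks and 0.24, 0.28 and 0.27 at 1 day, 8 weeks and 12 weeks. After median-ratio scaling over all 25 libraries it was 0.22 to 0.28 at the 5 ages. The pooled error may thus understate the spread of the compared ages for any of the 12. The 11 with a high SD at 2 weeks include miR-34c-5p and miR-34c-3p. For all 12, a lower adjusted p with all 25 libraries is therefore not stronger evidence from the compared ages themselves. Below, a log2 change is followed by ± its standard error with the 10 libraries, and both adjusted p values are from limma.

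**Figure D1:**
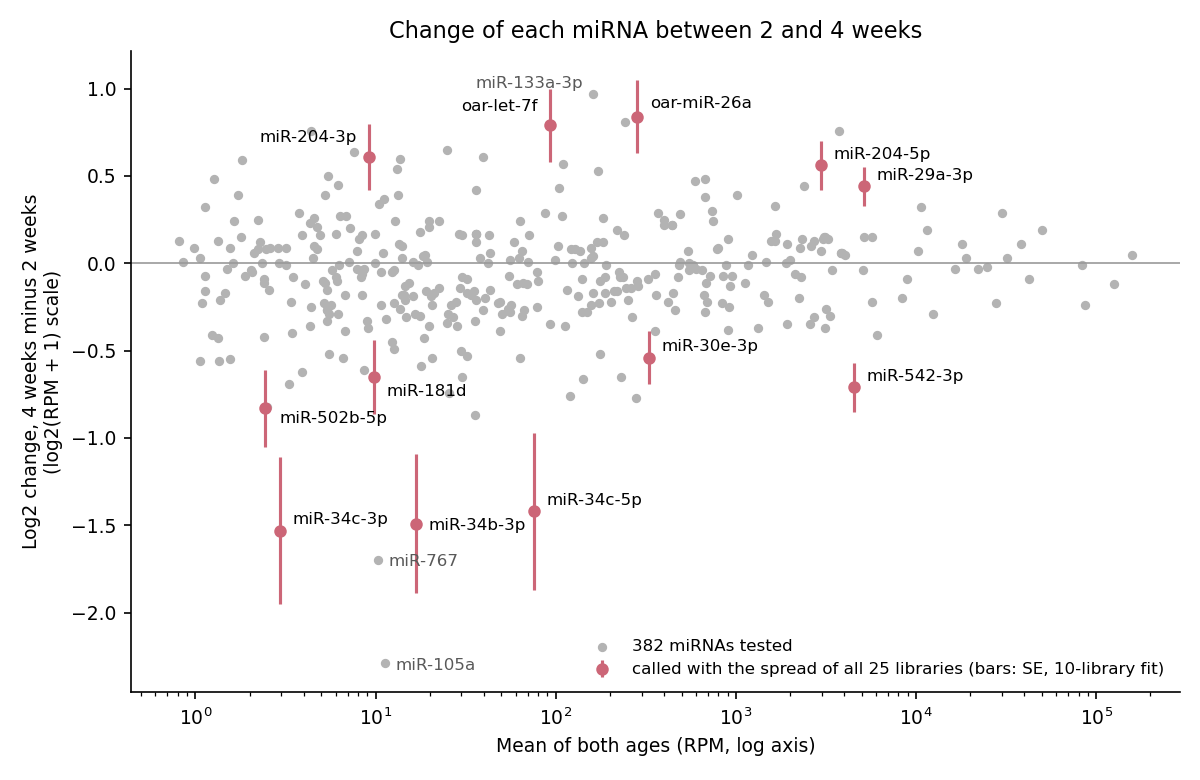
Log2 change from 2 to 4 weeks (vertical axis, log2(RPM + 1) scale) against the mean of both ages (horizontal log axis, RPM) for 382 miRNAs in grey, with the 12 called with the spread of all 25 libraries in red and their standard errors from the 10-library fit. The 5 points below −1 include 3 strands of miR-34b and miR-34c.

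miR-542-3p, a strand of a miRNA that is X-linked in human and known in human cells to repress the survival protein survivin, was the most abundant of the 7 lower ones. It had 5489, 4947, 7560.0, 5036 and 5029.7 RPM in 2-week replicates 1 to 5, and 3549, 3840.4, 3602, 2929 and 3132 RPM in 4-week replicates 1 to 5. All 4-week libraries lay below all 2-week libraries, and 2-week replicate 3 was far above the rest. The log2 change was −0.71 ± 0.14, or 1.63-fold lower, with a 95% interval of −1.0 to −0.41 (adjusted p = 0.0613, and 0.00311 with all 25 libraries). The 3 other tested strands named miR-542 or miR-424 were also below 0. miR-424-3p, from a hairpin whose 5p strand represses cell cycle genes in human cells, did not overlap between the ages, with 60.8 to 90.5 RPM at 2 weeks and 43.1 to 58.4 RPM at 4 weeks (−0.54 ± 0.17). miR-424-5p had −0.38 ± 0.15 and miR-542-5p −0.49 ± 0.21, both with overlapping libraries.

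The miR-34 strands had the lowest values at 4 weeks relative to 2 weeks among the called miRNAs. miR-34 miRNAs are direct targets of the tumour suppressor p53 and slow the cell cycle, and miR-34b and miR-34c are best known from ciliated epithelium and testis. miR-34c-5p had 56.1, 40.4, 189.5, 64.7 and 225 RPM at 2 weeks and 29.7, 17.4, 55.6, 48.7 and 29.5 RPM at 4 weeks. Replicates 3 and 5 of 2 weeks were high, replicate 2 lay within the 4-week range, and replicates 1 and 4 lay just above it. The log2 change was −1.42 ± 0.45 (adjusted p = 0.186, and 0.0457 with all 25 libraries). miR-34b-3p followed the same libraries, with 14.4, 11, 38.1, 15.4 and 51.4 RPM against 5.42, 3.99, 12.5, 8.9 and 7.29 RPM. The groups overlapped, since the highest 4-week library was above the lowest 2-week one (−1.49 ± 0.40, adjusted p = 0.115, and 0.019 with all 25). miR-34c-3p, the rarer strand, had 1.55 to 14.2 RPM at 2 weeks and 0.12 to 1.19 RPM at 4 weeks with no overlap (−1.53 ± 0.42, adjusted p = 0.115 and 0.0114), and its lowest value is below the estimated level of 3 reads. miR-34a, which has a gene of its own, had 42 to 78.8 RPM at 2 weeks and 28.8 to 73.5 RPM at 4 weeks and did not pass either test (−0.26 ± 0.26, adjusted p = 0.786 and 0.668). Over the 5 tested miR-34 entries, 5 were below 0 with a median of −1.42, against 57.6% below 0 and a median of −0.05 over all 382. The 4-week replicate 2 was the lowest of its age for all 5, and for 206 of all 382. Without 4-week replicates 1 and 2 the median of the 5 was −1.06, against 0.11 for all 382.

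miR-30e-3p, the less abundant strand of a miR-30 family member, had 311, 357, 444, 440.2 and 405 RPM at 2 weeks and 276, 303, 258, 243 and 261 RPM at 4 weeks. No library of 4 weeks reached the lowest of 2 weeks (−0.54 ± 0.15, adjusted p = 0.115, and 0.0292 with all 25). The abundant strand miR-30e-5p had 30174 ± 4146 RPM and 25642 ± 2443 RPM and passed neither test (−0.23 ± 0.11, adjusted p = 0.378 and 0.413). The miR-30 family as a whole had 3 of 11 members above 0 and a median of −0.18.

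miR-502b-5p and miR-181d completed the lower ones at low levels. miR-502b-5p had 2.54, 3.79, 2.42, 3.96 and 4.3 RPM at 2 weeks and 1.53, 1.82, 2.06, 1.14 and 0.84 RPM at 4 weeks, without overlap (−0.83 ± 0.22, adjusted p = 0.115, and 0.00792 with all 25). miR-181d, of the miR-181 family that tunes T cell receptor signalling, had 14, 13.3, 14, 7.51 and 12.5 RPM at 2 weeks and 6.95, 9.56, 6.41, 5.69 and 8.24 RPM at 4 weeks. Replicate 4 of 2 weeks lay among the 4-week values (−0.65 ± 0.21, adjusted p = 0.204, and 0.0457 with all 25).

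Among the higher ones, both strands of miR-204 stood together. miR-204 comes from an intron of TRPM3 and is best known from the eye and kidney. miR-204-5p had 2771, 2389, 2086, 2649.8 and 2047 RPM at 2 weeks and 3970.0, 2746, 3623, 3681 and 3609 RPM at 4 weeks. Only 4-week replicate 2 overlapped with the 2-week libraries, below 2-week replicate 1 (0.56 ± 0.14, or 1.48-fold higher, adjusted p = 0.115, and 0.00562 with all 25). miR-204-3p was far less abundant, at 7.11 ± 1.04 RPM and 11.4 ± 2.08 RPM, with no overlap (0.61 ± 0.19, adjusted p = 0.173, and 0.0295 with all 25).

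miR-29a-3p silences several collagen messengers, and its family is lower in fibrotic liver in mouse and human. It had 4184, 3961, 4513, 4726 and 4508 RPM at 2 weeks. At 4 weeks it had 5954, 5255, 6379, 6833 and 5312 RPM. All 4-week libraries were above all 2-week libraries (0.44 ± 0.11, or 1.35-fold higher, adjusted p = 0.115, and 0.0132 with all 25). The other members were much rarer: miR-29b-3p had 97.9 ± 9.34 RPM and 107 ± 30.1 RPM (0.10 ± 0.19), and miR-29c-3p 78.4 ± 12.7 RPM and 96.3 ± 18.5 RPM (0.29 ± 0.18). All 6 tested strands of the family were above 0, with a median of 0.28, against 42.4% above 0 over all 382. The family's summed level was 4148 to 4935 RPM at 2 weeks and 5519 to 7099.6 RPM at 4 weeks, which is nearly all miR-29a-3p.

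The remaining higher ones are sheep-named entries of miRNAs that also have a goat entry. Their values are uncertain because it is unknown how reads that match both entries were counted. oar-miR-26a had 224, 240.2, 158, 251 and 145 RPM at 2 weeks and 439.9, 476, 284, 302 and 324 RPM at 4 weeks. The ages did not overlap, and 4-week replicates 1 and 2 were the highest (0.84 ± 0.21, adjusted p = 0.115, and 0.00562 with all 25). The goat entry miR-26a-5p, a repressor of cell cycle genes in human and mouse hepatocytes, was far more abundant and had 47008 ± 2741 RPM and 53776 ± 4872 RPM (0.19 ± 0.09, adjusted p = 0.327 and 0.195). oar-let-7f had 66.8 ± 9.45 RPM and 119 ± 32.4 RPM (0.79 ± 0.21, adjusted p = 0.115 and 0.00562), with 1 library at 4 weeks, replicate 3, inside the 2-week range. The goat entry let-7f-5p, of the let-7 family that marks the end of early developmental programmes, had 31530.2 ± 1959 RPM and 32465 ± 4608 RPM (0.03 ± 0.11, adjusted p = 0.933 and 0.885).

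**Figure D2:**
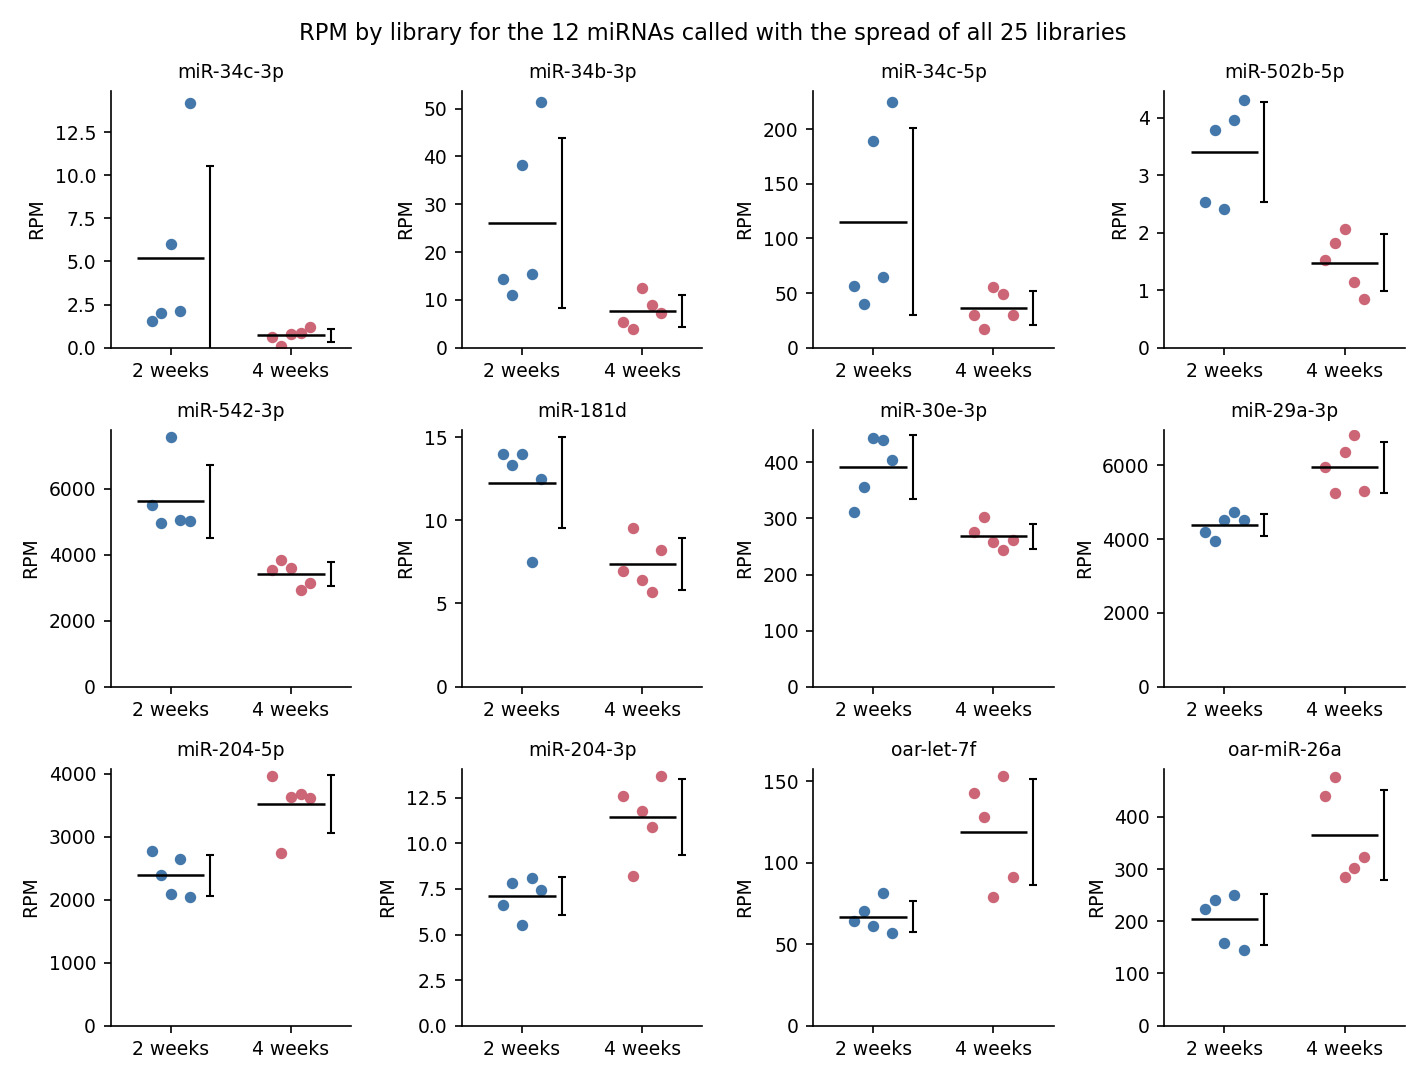
RPM in each library (vertical axes, each starting at 0) for the 12 miRNAs called with the spread of all 25 libraries, ordered from the lowest to the highest log2 change, with 2-week libraries in blue and 4-week libraries in red; horizontal bars are means and vertical bars 1 SD (n = 5). The ages do not overlap for miR-34c-3p, miR-502b-5p, miR-542-3p, miR-30e-3p, miR-29a-3p, miR-204-3p and oar-miR-26a, and the means of the miR-34 strands at 2 weeks are set by replicates 3 and 5.

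The means at the other ages of the series are given for 5 of these 12. miR-542-3p had 7039 RPM at 1 day, 2477 RPM at 8 weeks and 1425 RPM at 12 weeks, on either side of the 2-week and 4-week means of 5612 and 3411 RPM. miR-29a-3p had 3461 RPM at 1 day and 7547 and 9271 RPM at 8 and 12 weeks. The miR-204-5p mean was highest at 4 weeks (3526 RPM), with 2067 RPM at 1 day and 3167 and 2817 RPM at 8 and 12 weeks. miR-30e-3p was lowest at 4 weeks (268 RPM), between 529.7 RPM at 1 day and 344 and 349 RPM at 8 and 12 weeks. The miR-34c-5p mean was highest at 2 weeks (115 RPM), with 78.7 RPM at 1 day and 17.5 and 11.1 RPM at 8 and 12 weeks. These other means were not tested here.

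Another 5 miRNAs with at least 10 RPM did not overlap between the ages and were taken by the rule for named miRNAs, without passing either test. On the higher side at 4 weeks, miR-490, which lies in an intron of the muscarinic receptor gene CHRM2 in human, had 8.22 to 12.8 RPM against 13.7 to 19.5 RPM (0.60 ± 0.18). miR-1388-5p had 8.46 to 12.7 RPM against 13.4 to 18.7 RPM (0.54 ± 0.18). On the lower side, miR-148b-5p had 29.3 to 38.4 RPM against 20.4 to 29.1 RPM (−0.50 ± 0.17), and miR-151-3p, from an intron of PTK2, had 661 to 768 RPM against 589 to 639 RPM (−0.28 ± 0.12). miR-331-5p had 57.1 to 67.5 RPM against 45.6 to 54.3 RPM (−0.24 ± 0.15). miR-148b-3p, the last of the 14 and chosen after its values were seen, had 2211 to 2705 RPM against 1959 to 2209 RPM (−0.20 ± 0.11).

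Hairpins that lie near each other on a chromosome are often made from 1 transcript. In RefSeq's goat annotation (ARS1.2), 222 of 239 goat-named hairpins of the tested miRNAs could be placed, and those within 10 kb of a neighbour formed 31 groups. All tested strands were below 0 in 7 groups and above 0 in 6. The groups with called members and some others are described here, chosen after their values were seen. In the pair of miR-30e and miR-30c, which holds the called miR-30e-3p, signs were mixed. There 3 of 4 strands were below 0 and 1 above, with a median of −0.14 and values from −0.54 to 0.16. The group of miR-450, miR-542 and miR-424 had 6 of 6 strands below 0, a median of −0.43 and values from −0.71 to −0.14. Its members include miR-450-5p, with 2156 ± 559 RPM and 1693 ± 474 RPM (−0.35 ± 0.22). The pair miR-34b and miR-34c had 4 of 4 strands below 0, and the fourth, miR-34b-5p, had −0.69 ± 0.42, or −0.33 without 2-week replicate 5. In the group of miR-362, miR-500, miR-502a, miR-502b and miR-660, which lies in an intron of the chloride channel gene CLCN5 in human, 7 of 8 strands were below 0 with a median of −0.19. The exception was miR-502b-3p (0.09, at a mean of 0.977 RPM), the other strand of the called miR-502b-5p. miR-502a had 1.45 ± 0.329 RPM and 0.67 ± 0.298 RPM (−0.56 ± 0.20). The pair miR-181c and miR-181d had 3 of 3 strands below 0, and miR-181c-5p had −0.65 ± 0.24, with 4-week replicate 2 at 40.7 RPM among the 2-week values and the other 4-week libraries at 16.6 to 25.2 RPM.

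In the opposite direction, miR-221 and miR-222, which repress the cell cycle inhibitor p27 in human cells, had 3 of 3 strands above 0 with a median of 0.43. miR-221-3p had 123, 189.6, 90.5, 159 and 151 RPM at 2 weeks and 189, 224, 192, 219 and 182 RPM at 4 weeks. The groups overlapped through 2-week replicate 2, and the log2 change of 0.53 ± 0.19 passed neither test (adjusted p = 0.253 and 0.142). miR-221-5p had 0.39 ± 0.21 and miR-222-3p 0.43 ± 0.24. Of the miR-17-92 hairpins, a transcript that MYC raises in dividing cells, 7 of 10 strands were above 0 with a median of 0.20. miR-20a-5p had 558 ± 127 RPM and 783 ± 179 RPM (0.48 ± 0.19, adjusted p = 0.265 and 0.0845), while miR-18a-3p had 4.88 ± 0.812 RPM and 2.97 ± 1.27 RPM (−0.62 ± 0.24). Over this group with its paralogs, 16 of 21 tested strands were above 0 with a median of 0.13.

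**Figure D3:**
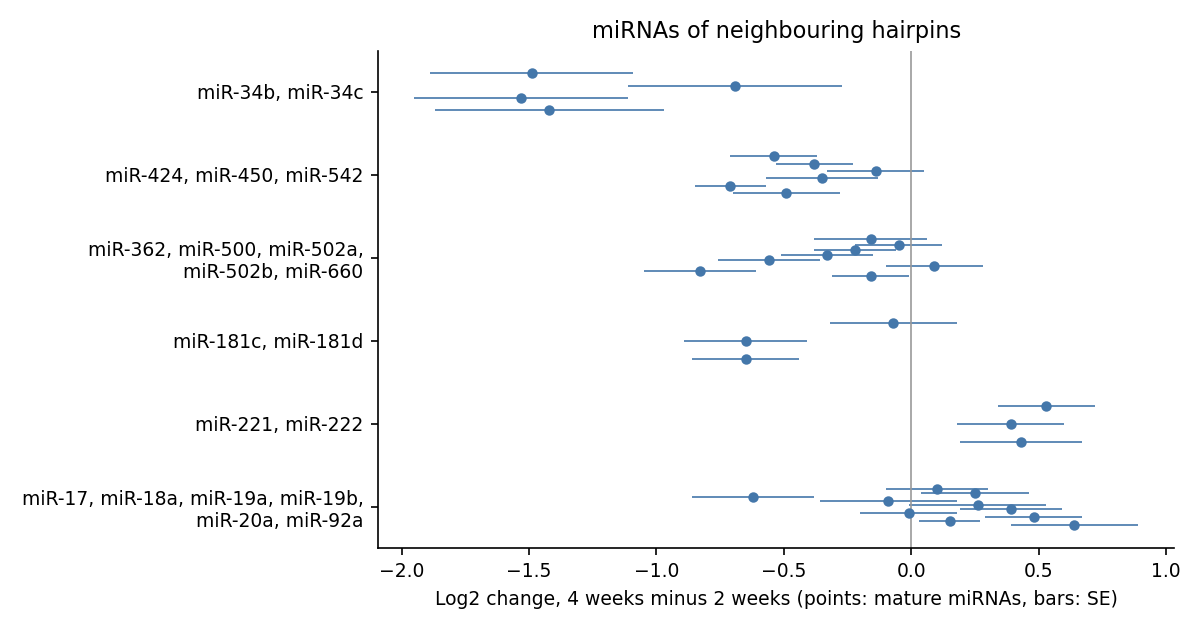
Log2 change from 2 to 4 weeks with its standard error (horizontal axis) for each tested mature miRNA of 6 groups of neighbouring hairpins (vertical axis; gaps of at most 10 kb in RefSeq ARS1.2). All points lie below 0 for miR-34b and miR-34c, for miR-424, miR-450 and miR-542 and for miR-181c and miR-181d, and all lie above 0 for miR-221 and miR-222.

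Where both strands of a hairpin were tested, 95 of 128 pairs had log2 changes of the same sign and 33 of opposite signs. The hairpin miR-335, made from an intron of the paternally expressed gene MEST, was among the latter. miR-335-5p had 6875 ± 1267 RPM and 5245 ± 1246 RPM (−0.41 ± 0.18, adjusted p = 0.327), and miR-335-3p had 478 ± 68 RPM and 703 ± 254 RPM (0.47 ± 0.26, adjusted p = 0.459). For miR-335-3p the 4-week libraries had 698, 305, 932, 918 and 662 RPM. All but replicate 2 were above the highest 2-week library at 541 RPM. Without that replicate the changes were −0.25 for miR-335-5p and 0.74 for miR-335-3p.

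The imprinted DLK1-DIO3 cluster, whose miRNAs are made from the maternal chromosome and abundant before birth, had 73 tested members, 63 of them below 0, with a median of −0.19. At an unadjusted p under 0.05 there were 4 of the 73, all lower, against 8.38% lower among all miRNAs, and none was called in either fit. The most abundant members were miR-379-5p (3688 ± 722 and 2952 ± 269 RPM, −0.30 ± 0.14), miR-411a-5p (3024 ± 705 and 2393 ± 218 RPM, −0.31 ± 0.15) and miR-369-3p (2337 ± 211 and 2289 ± 697 RPM, −0.08 ± 0.19). miR-493-5p, chosen after its values were seen, had 278 ± 74.2 and 181 ± 61.8 RPM (−0.65 ± 0.25), and its 3p strand had −0.66 ± 0.26. The lowest change was that of miR-3959-3p, with 46.7 ± 14.8 and 24.8 ± 6.61 RPM (−0.87 ± 0.26, adjusted p = 0.17 and 0.063). The cluster's summed level was 16519 to 24546 RPM at 2 weeks. At 4 weeks it was 14493 and 12416 RPM in replicates 1 and 2 and 18897 to 20754 RPM in the others. Replicate 2 was the lowest 4-week library for 53 of the 73 members and replicate 1 for 16, against 206 and 98 of all 382. After median-ratio scaling these counts were 45 and 16 of the 73, against 108 and 66 of the 382. Without both replicates the cluster's median was 0.10, against 0.11 for all 382 miRNAs.

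The hepatocyte and lipid metabolism lists held no member called in either fit. The hepatocyte list (miR-122, miR-192, miR-194 and miR-148a) had 5 of 7 strands above 0 and a median of 0.05, and its summed level was 224199 to 286336 RPM at 2 weeks and 204323 to 284653 RPM at 4 weeks. miR-122 itself had a log2 change of 0.05 ± 0.13 with a 95% interval of −0.22 to 0.32. The lipid metabolism list had 11 of 14 strands above 0 and a median of 0.09. The let-7 family had 9 of 20 above 0 and a median of −0.02, and 12 of 20 above 0 after median-ratio scaling. miR-101-3p had 27141 ± 4839.6 and 32912 ± 4299 RPM (0.29 ± 0.13, adjusted p = 0.327), and miR-21-5p, a broadly expressed miRNA raised in growing and injured liver, 93084 ± 9447 and 79479.6 ± 14029.5 RPM (−0.24 ± 0.12, adjusted p = 0.391). miR-16a-5p, a repressor of cyclins, had 9434 ± 1285 and 11883 ± 2138 RPM (0.32 ± 0.14, adjusted p = 0.327).

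Lists of other cell types were examined because bulk tissue cannot tell more cells of a type from more RNA per cell. The striated muscle list had 3 of 5 tested strands above 0 and a median of 0.76, which was 0.42 without 4-week replicates 1 and 2. The 3 were miR-1 and both strands of 1 hairpin, miR-133a. The 2 below 0 were miR-206 and miR-499-5p, and the lowest change was −0.25. Its summed level was 1573 to 4595 RPM at 2 weeks and 3520.3 to 7700.1 RPM at 4 weeks. No member was at 0 in all 10 libraries. miR-133a-3p had 61.4, 93.3, 80.2, 113 and 231 RPM at 2 weeks and 228, 263, 170.3, 209 and 167 RPM at 4 weeks. Replicate 5 of 2 weeks lay among the 4-week values and the other 2-week libraries below all of them (0.97 ± 0.29, or 1.96-fold higher, adjusted p = 0.166 and 0.0845). Without that library miR-133a-3p passed the same limma test, with a log2 change of 1.26 (adjusted p = 0.0175). Leaving out the only overlapping library separates the ages by choice, so that p-value is no support for the change. No other fit with 1 library left out called miR-133a-3p. miR-1 had 1488 to 4288 RPM at 2 weeks and 3316 to 7397 RPM at 4 weeks (0.76 ± 0.28), highest in 4-week replicates 2 and 1. The muscle miRNA miR-206 reached 31.9 RPM in 2-week replicate 5 and was at most 3.63 RPM in the 9 other libraries.

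Of the leukocyte list 4 of 9 strands were above 0, and 7 of 9 after median-ratio scaling. The myeloid miR-223-3p had 155, 329, 172, 95.8 and 155 RPM at 2 weeks and 228, 252, 279.8, 297 and 465 RPM at 4 weeks. Replicate 2 of 2 weeks was the exception to 2-week values below all 4-week values (0.81 ± 0.28, adjusted p = 0.239 and 0.142). Its other strand, miR-223-5p, had 0.65 ± 0.28. miR-146a, raised by inflammatory signals, had 3052 RPM in 2-week replicate 4 and 756 to 1924 RPM in the other libraries (−0.37 ± 0.32, and −0.08 without that library). The erythroid list had 2 of 4 strands above 0 (median −0.02), the mesenchymal list 10 of 12 (0.06), the endothelial list 1 of 2 (0.02) and the biliary epithelial list 3 of 5 (0.08). The mesenchymal 12 count the identical entries miR-199b and miR-199c separately on both strands. For 6 of these 12, and for 12 after median-ratio scaling, 4-week replicate 2 was the highest of its age, against 35 and 97 of all 382. The pancreas and endocrine list had 0 of 4 above 0 (−0.08) and the neural list 0 of 2 (−0.41; −0.03 for miR-9-3p without 2-week replicate 2). The 10 most abundant miRNAs together took 66.6% ± 0.944 of the reads at 2 weeks and 66.6% ± 2.98 at 4 weeks (exact two-sided permutation test, p = 0.992), with 4-week replicate 2 the highest at 71.6%.

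The largest fitted changes belonged to miR-105a and miR-767, which lie within the GABA receptor gene GABRA3 in human and are known there from germ cells and tumours. miR-105a had 0.55, 31.6, 24.5, 47.4 and 1.3 RPM at 2 weeks and 0.51, 2.9, 0.34, 0.52 and 3.23 RPM at 4 weeks. miR-767 had 0.88, 20.9, 26.6, 39.4 and 1.56 RPM at 2 weeks and 0.82, 5.2, 1.6, 0.62 and 5.73 RPM at 4 weeks. Both were high in 2-week replicates 2, 3 and 4 and at the 4-week level in 2-week replicates 1 and 5. Their log2 changes of −2.29 ± 0.85 and −1.70 ± 0.79 passed neither test (adjusted p = 0.253 and 0.348 with 10 libraries, 0.0845 and 0.195 with all 25). Mean levels at the other 3 ages were 0.684 to 3.64 RPM for miR-105a and 1.03 to 3.75 RPM for miR-767.

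On average the 4-week libraries lay no farther from their own mean than the 2-week libraries from theirs. Over the log2(RPM + 1) values of the 382 miRNAs, the Euclidean distance of a library to its age mean was 6.74, 9.19, 6.81, 6.01 and 5.81 for 4-week replicates 1 to 5, and 7.68, 7.56, 6.33, 6.96 and 8.46 for the 2-week replicates. The mean distances were 6.91 ± 1.35 at 4 weeks and 7.40 ± 0.80 at 2 weeks, and their difference of −0.484 did not pass an exact two-sided permutation test (p = 0.5). Replicate 2 of 4 weeks had the greatest distance of all 10. The mean distance was 5.17 at 1 day, 6.34 at 8 weeks and 5.84 at 12 weeks.

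The kind of spread was not the same at both ages. The SD of log2(RPM + 1) was larger at 4 weeks for 220 of 382 miRNAs (57.6%), with a median SD of 0.34 at 4 weeks and 0.29 at 2 weeks. After median-ratio scaling it was larger at 4 weeks for 172 (45%), with medians of 0.27 and 0.29. An SD over 1 was found for 11 miRNAs at 2 weeks, among them miR-105a (2.32), miR-767 (2.07), miR-206 (1.93), miR-10b-5p (1.86), miR-34c-5p (1.1) and the neural miR-9-3p (1.07). At 4 weeks it was found for 1, miR-1197-3p of the DLK1-DIO3 cluster (1.43), which had 0.48 RPM in replicate 5 and 3.75 to 17.5 RPM in the other 4.

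All 4-week libraries but replicate 2 were nearer the mean of their own age than that of any other age, also after median-ratio scaling. Distances to their own age, with the library itself left out of the mean, were 8.42, 11.5, 8.51, 7.51 and 7.26 for replicates 1 to 5. The libraries differed in which neighbouring age lay nearer. Replicates 1 and 2 were nearer the 8-week mean (distances of 8.60 and 8.07) than the 2-week mean (11.0 and 11.7). Replicates 3, 4 and 5 were nearer the 2-week mean (8.94, 9.27 and 7.87) than the 8-week mean (12.6, 12.1 and 10). The same order held after median-ratio scaling for all 5. Replicate 2 had the lowest value of its age for 206 of the 382 miRNAs and replicate 1 for 98, and after median-ratio scaling for 108 and 66. Among the 2-week libraries, replicate 1 was nearer the 4-week mean (8.46) and the 1-day mean (9.15) than its own (9.59). After median-ratio scaling these distances were 8.32, 8.5 and 9.51. The 2-week replicate 5 lay at 10.6 from both the 2-week and the 4-week mean.

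**Figure D4:**
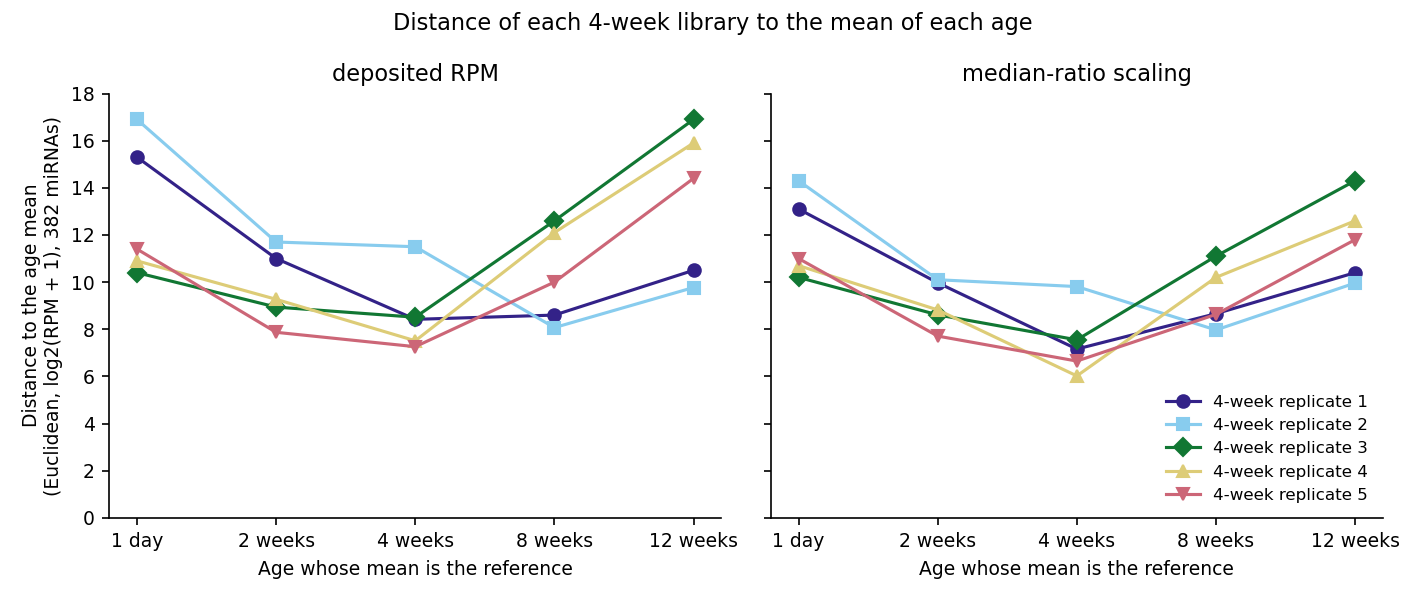
Euclidean distance over 382 miRNAs (vertical axis, log2(RPM + 1) units) of each 4-week library to the mean of each age (horizontal axis), with the deposited RPM on the left and after median-ratio scaling on the right; for 4 weeks the mean is that of the other 4 libraries. Replicates 1 and 2 are nearer to 8 than to 2 weeks, and replicates 3, 4 and 5 nearer to 2 than to 8 weeks.

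The 10 miRNAs with the largest SD among the 4-week libraries, at a mean of at least 10 RPM, were of 3 kinds. miR-10b-5p, which lies among the HOXD genes, had 92.2, 339, 60.6, 127 and 112 RPM, and miR-708-3p 15.3, 45, 13.2, 11.6 and 12.2 RPM. For both, replicate 2 was far above the other 4. miR-544-5p of the DLK1-DIO3 cluster had 22.1, 19, 59.4, 53.3 and 42.9 RPM, with replicates 1 and 2 low, and the same libraries were the lowest 2 for miR-665 and miR-496-3p of that cluster, for miR-483, which lies in an intron of the growth factor gene IGF2, for miR-16b-3p and for miR-1271-5p. For miR-483 the values were 5.72, 7.62, 21.6, 21.5 and 12.3 RPM. The remaining ones, miR-141 and miR-200c, are epithelial miRNAs that mark bile duct cells in liver. miR-200c had 45.8, 67.9, 30.7, 124 and 82.4 RPM and miR-141 19.2, 43.2, 11.7, 43 and 41.8 RPM, both lowest in replicate 3.

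**Figure D5:**
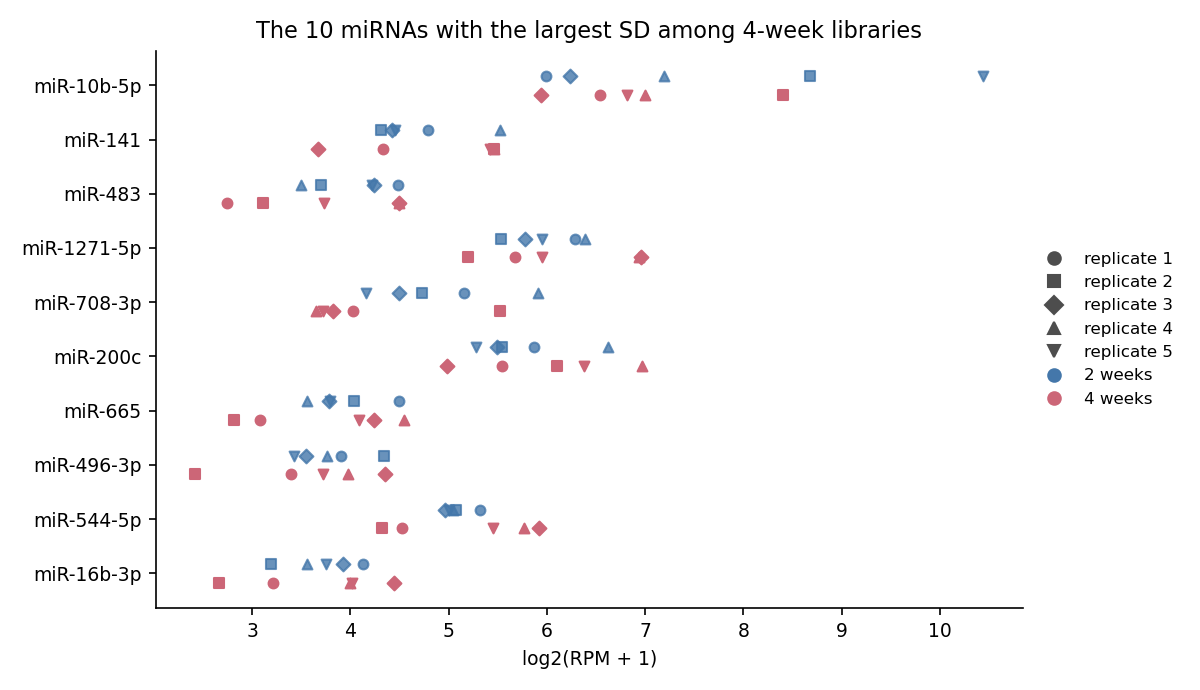
log2(RPM + 1) (horizontal axis) in each library for the 10 miRNAs with the largest SD among 4-week libraries (vertical axis), with 2-week libraries in blue and 4-week libraries in red and the replicate shown by the marker. For miR-483, miR-1271-5p, miR-665, miR-496-3p, miR-544-5p and miR-16b-3p the 4-week replicates 1 and 2 lie lowest, while for miR-10b-5p and miR-708-3p replicate 2 lies highest.

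Without 4-week replicates 1 and 2, limma called 0 miRNAs among the remaining 8 libraries, with 69 at an unadjusted p under 0.05, 52 higher and 17 lower, and the median of all log2 changes was 0.11. The directions of the 12 called miRNAs held in that fit, with log2 changes of −0.79 for miR-542-3p, 0.62 for miR-204-5p, 0.49 for miR-29a-3p, 0.60 for oar-miR-26a and −1.06 for miR-34c-5p. When limma's library weights gave these replicates less say (0.455 and 0.241, against 2.20, 2.81 and 1.70 for replicates 3, 4 and 5), 21 were called (5.5%), 12 higher (3.14%) and 9 lower (2.36%). The 21 include 10 of the 12, all but oar-let-7f and miR-34c-5p, and among the others are miR-223-3p, miR-490, miR-20a-5p, miR-16a-5p, miR-19b-3p, miR-1388-5p, miR-335-3p, miR-181c-5p and miR-708-3p. Both fits reuse libraries from which the 12 were chosen, so the kept directions and shared calls are no independent support.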

How the data were processed

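The authors deposited 1 table with a column per library and 463 miRNA entries, in RPM. No header names the unit, which rests on the values: each column of the 10 libraries sums to between 1010981 and 1018216, and its values are whole multiples of 1 step, to within 0.1 read for 100.0% of the low values examined. These were 242 to 261 values per library. Depths are estimates, and no counts were recovered for testing. Per the labels' protocols, Trizol RNA went into libraries with a kit for stranded total RNA; the submitters' processing notes list Bowtie 1.1.1. As for the build, annotation, small RNA selection and treatment of reads that match several entries, none was given in the sources used here.

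Here limma 3.58.1 in R 4.3.3, with a variance trend on the mean level, took log2(RPM + 1) of the 10 libraries with no replicate block, and p-values were adjusted over 382 miRNAs (Benjamini-Hochberg, threshold 0.05). The log2 scale with a pseudocount of 1 understates the change of low miRNAs. The 10-library fit was chosen because earlier results had the 4-week libraries spread more widely than others; the distances reported here do not bear that out against 2 weeks. Of the entries at the filter, 8 passed with exactly 5 libraries and 10 missed it with 4. The entries miR-199b and miR-199c are exact copies on both strands. Distances and the top-10 share of reads were compared over libraries by exact permutation (252 arrangements). Median-ratio and trimmed-mean scaling, other filters and pseudocounts, all 25 libraries, library weights, a replicate block and left-out libraries were the alternatives. The code was tested on simulated data.

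The members, lists and rules were chosen with earlier results of these data known. Named miRNAs are called ones with at least 10 RPM (none), up to 6 in each direction without overlap and with at least 10 RPM, the 10 largest SDs at 4 weeks, the 10 most abundant, and 3 of each of 17 lists. The 12 called with all 25 libraries and others outside this rule were chosen after their values were seen: miR-105a, miR-767, miR-206, miR-1197-3p, miR-10b-3p, miR-16a-5p, and further strands of named hairpins, neighbours and lists. Lists are described by counts and medians, with no list test. Python 3.11.15, numpy 2.4.6, pandas 2.3.3 and matplotlib 3.10.9 were used.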

Additional observations from a re-analysis of the deposited data

Results flagged for a closer look

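For the named miRNAs, the distance to the age mean and the top-10 share of reads, each age's 5 libraries were examined for a highest or lowest library whose gap to the next exceeds 0.71 of the whole range. It was found in 16 of 208 groups. For independent, normally distributed values chance alone gives about 1 in 20. The named miRNAs were partly chosen for a large SD or after their values were seen, so these shares cannot be compared. None of these values was removed, and no cause was tested.

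At 2 weeks, replicate 3 was far above the others for miR-542-3p (7560.0 RPM). Replicate 1 was far below for miR-151-3p (661 RPM) and far above for miR-20a-5p (776 RPM). Replicate 5 was far above for miR-10b-5p (1389.9 RPM) and for the muscle miR-206 (31.9 RPM). Replicate 4 was far above for miR-146a (3052 RPM) and far below for miR-181d (7.51 RPM). Replicate 2 was far above for miR-410-3p of the DLK1-DIO3 cluster (310.0 RPM) and far below for miR-502a (0.88 RPM).

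At 4 weeks, replicate 2 was far above the others for miR-143-3p (247259.8 RPM), miR-10b-5p (339 RPM), miR-708-3p (45 RPM) and miR-206 (3.63 RPM). Replicate 1 was far above for miR-26a-5p (62346 RPM) and far below for miR-9-3p (6.74 RPM). Replicate 5 was far above for miR-411a-5p (2773 RPM).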

How the results depend on the processing

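The count of called miRNAs was 0 with the 10 libraries and stayed 0 under median-ratio and trimmed-mean scaling, no filter, 1 RPM in 5 of all 25 libraries, pseudocounts of 0.1 and 10, a log2 change of at least 1, and with miR-143-3p left out of the library total (chosen after seeing the data; 62 at an unadjusted p under 0.05). It was 12 with all 25 libraries, 14 with these and median-ratio scaling (chosen after seeing the data; 9 higher, 5 lower), 21 with library weights and 1 (miR-542-3p, limma adjusted p = 0.0462) at a mean of at least 10 RPM. Of the 12, miR-30e-3p (limma adjusted p = 0.123) and miR-181d were not among the 14. Leaving out 1 library gave 0 to 5: 2 without 2-week replicate 5 (miR-133a-3p, miR-542-3p), 5 without 4-week replicate 2 (miR-181c-5p, miR-204-5p, miR-29a-3p, miR-335-3p, miR-542-3p), and 0 in each of the other 8 fits. With the replicate number as a block 0 were called (lowest limma adjusted p 0.0597, 44 at an unadjusted p under 0.05). Whether equal numbers link libraries of both ages is not stated in the labels, and correlations of 5 pairs cannot decide it. Deviations of same-numbered libraries correlated at −0.05, 0.18, 0.15, −0.25 and −0.27 over miRNAs. Of the libraries, 2 of 5 at 2 weeks and 0 of 5 at 4 weeks correlated best with their own number. The planned count tests on reads recovered from the steps were not run.

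The difference in mean distance ranged from −1.6 to 0.0993 with 1 library left out (−1.6 without 4-week replicate 2, exact permutation p = 0.0794) and was −1.35 after median-ratio scaling (exact permutation p = 0.0873). The difference in top-10 share ranged from −1.26 to 0.523 percentage points, and was 0.205 for the 20 most abundant.

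Log2 changes that changed sign were all of miRNAs that passed neither test. Under median-ratio, trimmed-mean and median-ratio scaling with all 25 libraries they became 0.04, 0.03 and 0.03 for miR-30a-5p; 0.01, 0.01 and 0.00 for miR-30c-5p; 0.02 in all for let-7g-5p and miR-27b-3p; 0.01 in all for miR-342-3p; 0.03 in all for miR-126-3p; and 0.04 in all for miR-200a and miR-7-5p. With library weights and without 4-week replicates 1 and 2 they became 0.13 and 0.21 for miR-483, 0.29 and 0.36 for miR-665, 0.19 and 0.21 for miR-496-3p, 0.30 and 0.44 for miR-16b-3p, 0.01 and 0.01 for let-7g-5p, 0.06 and 0.13 for miR-30c-5p, 0.19 and 0.25 for miR-369-3p, 0.02 and 0.11 for miR-34a, 0.03 and 0.04 for miR-342-3p, 0.09 and 0.14 for miR-126-3p, 0.09 and 0.09 for miR-200a, and 0.06 and 0.13 for miR-7-3p; without those replicates miR-429 had 0.04. A pseudocount of 10 gave 0.00 for miR-16b-3p and one of 0.1 gave 0.04 for miR-206. The cause was not tested.

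With 1 library left out, the ranges that cross 0 were −0.05 to 0.39 for miR-1271-5p, −0.01 to 0.49 for miR-200c, −0.38 to 0.05 for miR-665, −0.42 to 0.06 for miR-496-3p, −0.06 to 0.34 for miR-544-5p, −0.24 to 0.21 for miR-16b-3p, −0.01 to 0.17 for miR-122, −0.06 to 0.04 for miR-30a-5p, −0.01 to 0.12 for let-7f-5p, −0.06 to 0.03 for let-7g-5p, −0.06 to 0.10 for let-7a-5p, −0.05 to 0.19 for miR-29b-3p, −0.15 to 0.04 for miR-30c-5p, −0.21 to 0.07 for miR-369-3p, −0.06 to 0.01 for miR-27b-3p, −0.11 to 0.07 for miR-27a-3p, −0.09 to 0.24 for miR-144-5p, −0.32 to 0.16 for miR-144-3p, −0.13 to 0.05 for miR-342-3p, −0.06 to 0.21 for miR-199a-3p and miR-199b-3p, −0.09 to 0.09 for miR-126-3p, −0.05 to 0.18 for miR-126-5p, −0.09 to 0.17 for miR-200b, −0.16 to 0.11 for miR-200a, −0.15 to 0.07 for miR-7-5p, −0.14 to 0.00 for miR-7-3p, −0.22 to 0.11 for miR-217-5p and −0.56 to 0.60 for miR-206. The 12 miRNAs called with all 25 libraries kept their sign in every alternative run. They were chosen for their change in these same libraries, so this is no independent support.

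With 5 libraries an age the 95% interval of a change lay within 1.5-fold in either direction for 37.7% of miRNAs, and for the others a change of that size is not excluded.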
